A study of Mus musculus with 18 samples.

Results

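The genes described here are the mitochondrial carriers whose symbol begins with Slc25a and a number. All rows of the deposited gene values with such a symbol were taken, which gave 46 members of 19197 genes. The choice used the symbol alone and no measured value. The 18 libraries come from heart apex tissue of C57BL/6 mice, an inbred laboratory strain, taken 1 day after surgery. The surgery was either a myocardial infarction (MI) or a sham procedure. The sham_vehicle group had 6 sham-operated hearts given vehicle, the MI_vehicle group had 6 infarcted hearts given vehicle, and the MI_DCA group had 6 infarcted hearts given DCA at 10 mg/kg per day. The labels give the abbreviation DCA only. Since the series title pairs it with TGR5, a receptor for bile acids, DCA is taken to be the bile acid deoxycholic acid. No group carries a genetic change in the labels, and the sources used here do not name the vehicle, the age or sex of the mice, or how the apex lay to the infarct. Values are FPKM, fragments mapped to a gene relative to its transcript length and to the mapped total of the library, a level per length that lets genes be set side by side.

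Carriers of this family sit in the inner mitochondrial membrane, with a few in other membranes, and exchange metabolites between the matrix and the cytosol. In heart muscle they bring ADP and phosphate to ATP synthase and return ATP, pass acylcarnitines in for fatty acid oxidation, and carry the malate and aspartate that move reducing equivalents inward. Others supply the matrix with cofactors, nucleotides, amino acids and iron. The heart draws most of its ATP from fatty acids, and a fall of mitochondrial and fatty acid oxidation transcripts is a known feature of the injured heart.

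Of the 46 members, 38 had at least 1 FPKM in every one of the 18 hearts and passed the filter on low values in every comparison. The other 8 (Slc25a2, Slc25a18, Slc25a21, Slc25a31, Slc25a41, Slc25a43, Slc25a53 and Slc25a54) did not exceed 1.08 FPKM in any heart. Slc25a31, an ADP/ATP carrier known from the testis, had a median of 0.21 FPKM in sham hearts. None of these 8 passed a two-sided exact permutation test of mean FPKM, with 6 hearts per group and a smallest adjusted p of 0.525, adjusted over the 8 genes.

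Sequences are shown for the members on which the results turn. Slc25a3, the phosphate carrier, is known for a pair of mutually exclusive exons, one used in heart and skeletal muscle and one more widely, and both exons follow, read from the GENCODE release M21 transcripts (GRCm38). The first belongs to the transcript that GENCODE matches to the curated RefSeq transcript and lies at chr10:91121922-91122043 on the minus strand. The second, from another GENCODE transcript, is joined to the same edges of the neighbouring exons, whose far ends were not compared. It lies at chr10:91122207-91122331 on the same strand. Both are wholly coding, with 122 and 125 bases, and capitals mark bases that differ or have no partner in a global alignment of the pair. In that alignment, 80 of 121 aligned bases (66.1%) were identical.
Slc25a3 exon 3, RefSeq-matched transcript: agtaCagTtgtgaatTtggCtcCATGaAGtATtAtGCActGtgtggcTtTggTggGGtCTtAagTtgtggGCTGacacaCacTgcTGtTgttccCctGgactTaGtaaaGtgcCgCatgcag
Slc25a3 exon 3, alternative transcript: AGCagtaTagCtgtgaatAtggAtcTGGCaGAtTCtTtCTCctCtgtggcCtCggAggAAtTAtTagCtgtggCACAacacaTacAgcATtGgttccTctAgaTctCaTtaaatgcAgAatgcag

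The next sequences lie within the 250 bases upstream of the RefSeq start (GRCm38.p6) of the members with the largest fall and the largest rise after infarction. For Slc25a34, on the minus strand of chromosome 4, they are chr4:141623892-141624084, without the 57 bases nearest the start, which fall inside the interval RefSeq gives for the gene. For Slc25a24, on the plus strand of chromosome 3, they are chr3:109122899-109123148. Neither stretch overlaps an exon of GENCODE M21. Capitals mark a match to a motif.
Slc25a34 upstream: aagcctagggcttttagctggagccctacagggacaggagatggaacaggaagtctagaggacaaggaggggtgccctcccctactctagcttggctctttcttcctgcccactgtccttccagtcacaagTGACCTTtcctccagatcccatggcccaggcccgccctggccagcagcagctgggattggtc
Slc25a24 upstream: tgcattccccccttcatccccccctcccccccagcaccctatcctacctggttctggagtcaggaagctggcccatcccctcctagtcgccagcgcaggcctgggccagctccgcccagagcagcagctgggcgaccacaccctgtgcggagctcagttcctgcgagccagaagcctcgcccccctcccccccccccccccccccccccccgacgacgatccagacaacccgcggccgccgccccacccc

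Motifs of 3 factors known to bind mitochondrial genes were searched on both strands, and they were picked after the values had been seen. AAGGTCA, the form bound by estrogen-related receptors, occurred once in the Slc25a34 window, on the reverse strand from 119 to 113 bases upstream, and in 4.08% of all 32851 upstream windows. The Slc25a24 window held none of the motifs. Of the 46 members, 35 had a window. Among the 11 with a window that fell after infarction, 1 held AAGGTCA, 1 held the NRF1 motif (3.74% of all windows) and 3 held CCGGAAG (the GABPA motif, 6.91% of all windows). Among the 6 that rose, 1 held CCGGAAG and none the other motifs. Of the 12 uncalled members with a window, 1 held CCGGAAG and none the other motifs. Of the 6 below the filter, 1 held CCGGAAG, 1 the NRF1 motif and none AAGGTCA. A member with several windows was counted if any of them matched, whereas the shares of all windows are per window. A match of letters is a description of the window and not a bound site.

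The deposited FPKM summed to 516274 to 584701 per library, 15730 to 16229 genes were above 0, and log2 values correlated at 0.925 to 0.993 between libraries of a group. The files hold no read counts, so the depth behind each value is unknown.

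In sham hearts the family was led by Slc25a4, the ADP/ATP carrier of muscle, at 4579 to 5204 FPKM (median 5058). Next came Slc25a3 with 1332 to 1506 (median 1460), Slc25a11, the malate/2-oxoglutarate carrier, with 369 to 390 (median 381), and Slc25a5, the ADP/ATP carrier of many tissues, with 195 to 236 (median 214). Slc25a20, the carnitine/acylcarnitine carrier, was the fifth, at 118 to 142 FPKM (median 127). The ranges of these 5 members did not overlap. Slc25a34, Slc25a39 and Slc25a12 followed with medians of 103, 100.5 and 95.4 FPKM and overlapping ranges, so their order is not resolved. Slc25a34 has no assigned substrate here, Slc25a39 is known for glutathione import, and Slc25a12 is the aspartate/glutamate carrier of muscle and brain. Slc25a4 alone made up 63.2% ± 0.88 (SD, n = 6) of the summed FPKM of the 46 members, and Slc25a3 18.4% ± 0.504.

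That sum was 7349 to 8067 FPKM in the sham group, 3691 to 7318 in the MI_vehicle group and 4273 to 8272 in the MI_DCA group. Infarcted hearts differed far more among themselves than sham hearts did. Among the MI_vehicle hearts, replicate 4 stood closest to sham with 7318 FPKM and replicate 6 farthest with 3691. Among the MI_DCA hearts, replicates 1, 3 and 5 had 7520, 8272 and 7591, inside or near the sham range, whereas replicates 2 and 6 had 4273 and 5142 and replicate 4 had 6151. The sum follows Slc25a4, and single members differed in their order. Of the 12 members plotted by heart, 8 were highest within the MI_vehicle group in replicate 4, while Slc25a1, Slc25a24 and Slc25a25 were lowest there. Slc25a4 and Slc25a3 were lowest in MI_vehicle replicate 6, and Slc25a13, Slc25a34 and Slc25a42 in replicate 2.

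**Figure D1:**
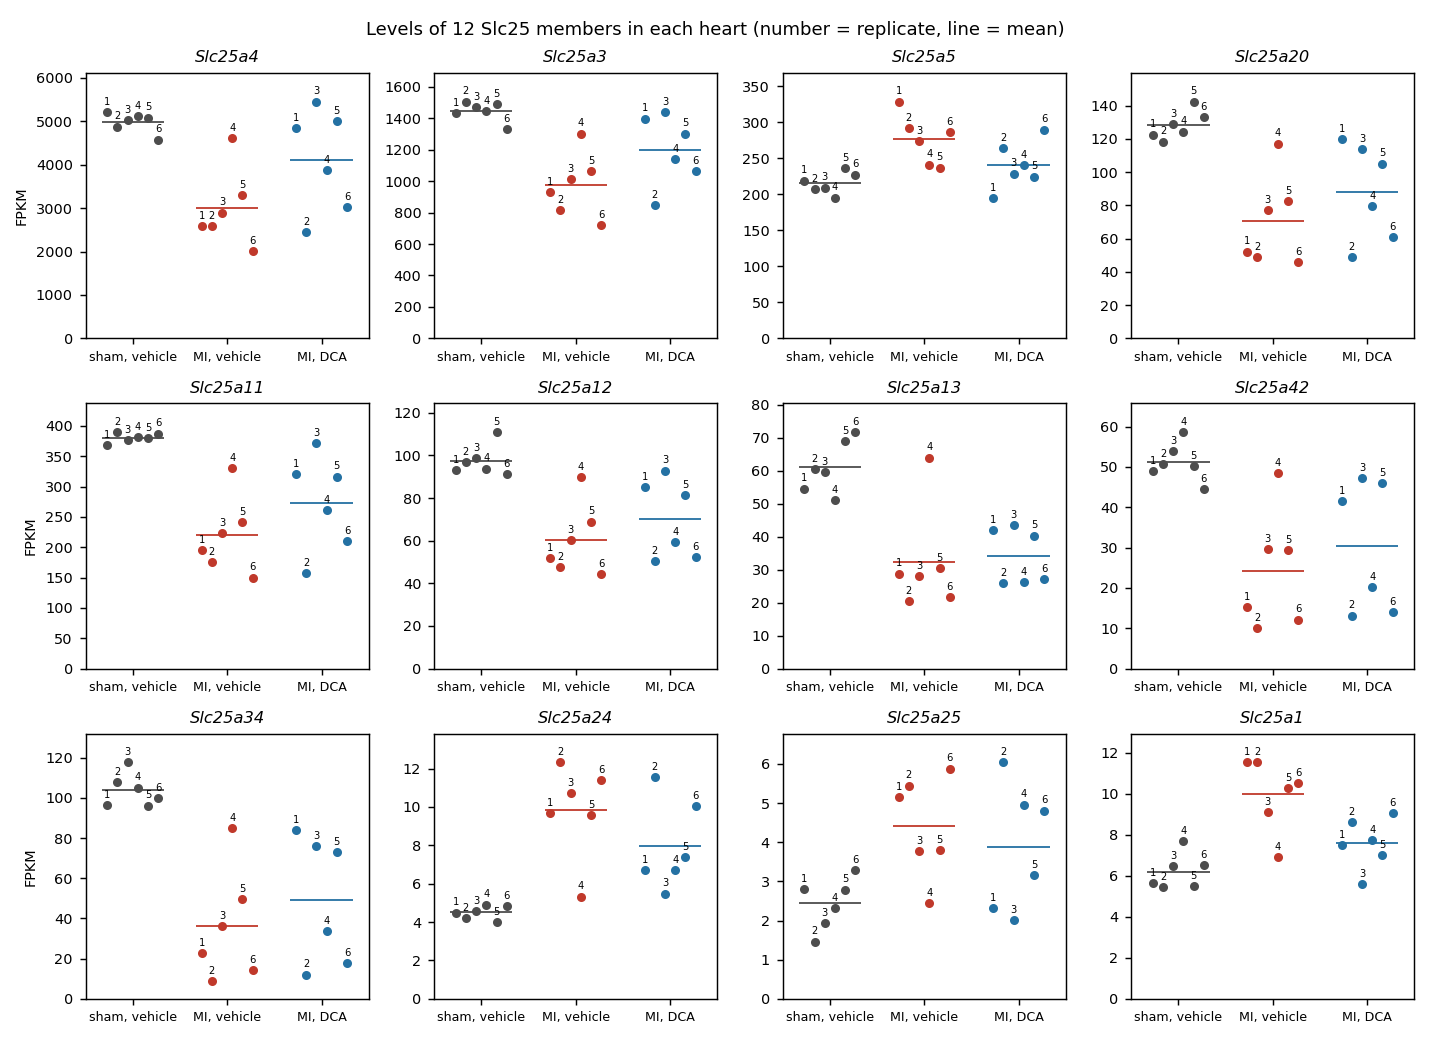
FPKM (linear axis from 0) of 12 members in each of the 18 hearts, grouped as sham vehicle, MI vehicle and MI DCA, with the replicate number above each point and a line at the group mean. MI_vehicle replicate 4 lies nearest to the sham hearts in Slc25a4, Slc25a20 and Slc25a34, and Slc25a24 is higher in all 6 MI_vehicle hearts (5.33 to 12.3) than in any sham heart (3.98 to 4.91).

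The first comparison asked how infarction changed the family in hearts given vehicle. Of the 3 tested ADP/ATP and phosphate carriers 2 fell and 1 rose, the acylcarnitine carrier fell, and 2 of 3 tested ATP-Mg/phosphate carriers rose. Of the 38 members tested, 15 fell and 6 rose at an adjusted p under 0.05 (limma on log2(FPKM + 1), Benjamini-Hochberg over all genes). Among all 11969 genes tested, 20.1% were called lower and 38.3% higher. The median log2 fold change was -0.19 over the 38 members and 0.12 over all genes tested. In 5 members every MI_vehicle heart lay below every sham heart (5.74% of all genes did so), and in 3 every MI_vehicle heart lay above (16.1% of all genes).

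Among the ADP/ATP and phosphate carriers, Slc25a4 had 2011, 2740 and 4606 FPKM as lowest, median and highest value in MI_vehicle hearts. Its mean fell from 4984 ± 226 to 2997 ± 896 FPKM (SD, n = 6 each), a log2 fold change of -0.78 (SE 0.17, limma adjusted p = 0.00203). Only replicate 4 reached into the sham range. Slc25a3 had 719, 971 and 1302 FPKM in MI_vehicle hearts and fell by 0.60 on the log2 scale (SE 0.13, limma adjusted p = 0.00217), with every infarcted heart below every sham heart.

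Slc25a5, which is the second ADP/ATP carrier and is abundant in growing and non-muscle cells, went the other way. Its 237, 280 and 329 FPKM in MI_vehicle hearts all exceeded the highest sham value of 236. The rise of 0.35 on the log2 scale (SE 0.09, limma adjusted p = 0.00629) was lost when libraries were scaled by median ratios (0.21, adjusted p = 0.0694). The share of Slc25a5 in the sum of Slc25a4 and Slc25a5, a ratio chosen after the values had been seen, does not change when a library is scaled by 1 factor. It was 4.16% ± 0.372 (SD, n = 6) in sham hearts and 9.04% ± 2.83 in MI_vehicle hearts. No infarcted heart given vehicle (4.98% to 12.4%) fell within the sham range (3.67% to 4.73%). Since the ratio was formed from members already seen to move apart, this is a description, and the permutation test computed for it is not used as support.

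The files list a pair of transcripts for Slc25a3. The curated RefSeq transcript, which GENCODE matches to the first exon printed above, had 71.9 to 119 FPKM in sham hearts and 77.1 to 95.5 in MI_vehicle hearts, and was not called (log2 fold change -0.13, SE 0.13, limma adjusted p = 0.481 over all transcripts). The predicted RefSeq transcript, which carried most of the gene's value, ran from 1260 to 1417 FPKM in the sham group and from 629 to 1214 in MI_vehicle hearts. It fell by 0.64 on the log2 scale (SE 0.14, limma adjusted p = 0.00589). Among all 19699 transcripts tested, 10.1% were called lower. The sources used here do not say which of these exons the predicted transcript carries, and single reads of 50 bases assign transcripts of one gene poorly. The curated transcript's share of the gene was 6.76% ± 1.35 (SD, n = 6) in sham and 9.32% ± 1.92 in MI_vehicle hearts. That difference had an exact permutation p of 0.0195 and of 0.0584 after adjustment over the 6 ratio comparisons computed, so it did not pass.

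Slc25a20, which brings acylcarnitines to the matrix, had 46.1, 64.6 and 117 FPKM in MI_vehicle hearts and fell from a mean of 128 ± 8.6 to 70.7 ± 27.4. Its log2 fold change was -0.93 (SE 0.19, limma adjusted p = 0.00145), and no infarcted heart reached the lowest sham value of 118. Replicates 1, 2 and 6 were lowest, with 52.2, 49 and 46.1 FPKM. Of 6 enzymes and transporters around this carrier, 5 fell as well. The largest falls were those of Acsl1, which activates long-chain fatty acids (log2 fold change -1.36), and of Cpt2 and Cpt1b, the carnitine palmitoyltransferases of the inner and outer membrane (-1.16 and -1.09, limma adjusted p = 0.00189 and 0.00413). Crat, carnitine acetyltransferase, fell by 0.93 on the log2 scale.

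The carriers of the malate-aspartate shuttle fell together. Slc25a13, the aspartate/glutamate carrier known from liver and many other tissues, had 51.2, 60 and 71.8 FPKM in sham hearts and 20.6, 28.4 and 64 in MI_vehicle hearts. The fall was 1.0 on the log2 scale (limma adjusted p = 0.00181), and 5 of 6 infarcted hearts lay at or below 30.4 while replicate 4 lay inside the sham range. Slc25a12 fell from 91.4, 95.4 and 111 to 44.1, 56 and 89.8 FPKM, by 0.72 on the log2 scale (limma adjusted p = 0.00124), with no overlap. Slc25a11, which exchanges malate for 2-oxoglutarate, fell from 369, 381 and 390 to 150.1, 209 and 331 FPKM, a log2 fold change of -0.84 (SE 0.15, limma adjusted p = 0.000661), also with no overlap. All 4 enzymes of the shuttle, Got1, Got2, Mdh1 and Mdh2, fell too, by 0.52 (Got2) to 0.82 (Mdh1) on the log2 scale.

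Among the other carboxylate carriers, Slc25a1, which exports citrate, rose from 5.44, 6.06 and 7.69 to 6.93, 10.4 and 11.6 FPKM. Its log2 fold change was 0.60 (SE 0.12, limma adjusted p = 0.00103), and replicate 4 was the lowest of the infarcted hearts and lay within the sham range. Slc25a22, a glutamate carrier, had a log2 fold change of -0.39 that did not pass (limma adjusted p = 0.0574), and Slc25a10, a dicarboxylate carrier, of 0.00 (limma adjusted p = 0.991, 95% interval -0.17 to 0.17).

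The ATP-Mg/phosphate carriers load adenine nucleotides into the matrix and are regulated by calcium. Slc25a24 showed the largest rise of the family, from 3.98, 4.53 and 4.91 to 5.33, 10.2 and 12.3 FPKM. The log2 fold change was 0.94 (SE 0.15, limma adjusted p = 0.000287), and replicate 4 was again the heart closest to sham. Slc25a25 rose from 1.46, 2.56 and 3.29 to 2.44, 4.47 and 5.88 FPKM, by 0.64 on the log2 scale (SE 0.17, limma adjusted p = 0.00687). Its groups overlapped through replicate 4. Slc25a23, the most abundant of the 3, had 31.7 to 37.2 FPKM in sham hearts and 32.2 to 48.6 in MI_vehicle hearts and was not called (log2 fold change 0.19, limma adjusted p = 0.108).

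Of the 9 carriers of cofactors and nucleotides, 5 fell and 1 rose. Slc25a42, which imports coenzyme A, changed most, from 44.6, 50.4 and 58.7 to 10, 22.4 and 48.5 FPKM, a log2 fold change of -1.25 (SE 0.30, limma adjusted p = 0.00352). Replicates 2, 6 and 1 had 10, 12.1 and 15.3 FPKM, whereas replicate 4 lay within the sham range. Slc25a26, the S-adenosylmethionine carrier, fell by 0.63 on the log2 scale from 11.3, 13.3 and 14.7 to 5.96, 7.43 and 14.6 FPKM (limma adjusted p = 0.00542). Slc25a16 and Slc25a51 (NAD) fell by 0.37 and 0.23. Slc25a17, a carrier of the peroxisome, rose from 11.7, 12.5 and 14.1 to 13.6, 16.9 and 18.6 FPKM, with overlapping groups. That rise of 0.33 on the log2 scale (limma adjusted p = 0.00625) was 0.18 and missed the threshold with quantile normalization (adjusted p = 0.0583). Slc25a32, Slc25a33 and Slc25a36 were not called, with log2 fold changes of -0.02, -0.31 and 0.12.

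Of the 6 measured amino acid and glutathione carriers, only Slc25a29, which takes up basic amino acids, was called. It fell from 3.81, 4.86 and 5.89 to 1.93, 2.33 and 4.21 FPKM, by 0.68 on the log2 scale (SE 0.14, limma adjusted p = 0.00113). Slc25a15, Slc25a38, Slc25a39, Slc25a40 and Slc25a44 had log2 fold changes between -0.25 and 0.20 that did not pass. Neither mitoferrin, which imports iron, was called: Slc25a37 had a log2 fold change of 0.21 and Slc25a28 of 0.00, with an interval from -0.15 to 0.15. None of the 3 uncoupling-like members passed. Slc25a27 came nearest, with a log2 fold change of -0.44 (limma adjusted p = 0.0502).

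Slc25a34 showed the largest fall among the tested members. It had 96.2, 103 and 118 FPKM as lowest, median and highest value in sham hearts. The MI_vehicle hearts, from replicate 1 to 6, had 22.6, 8.7, 36.4, 85.1, 49.5 and 14.4. No infarcted heart reached the sham range, and the log2 fold change was -1.86 (SE 0.41, limma adjusted p = 0.00198). Slc25a35 fell by 0.41 and Slc25a47, known from liver, by 0.34, a call that was lost in 7 of 12 fits that left out 1 heart (limma adjusted p = 0.0342 with all hearts). Slc25a45 rose by 0.45 (limma adjusted p = 0.00579), from 3.23, 4.32 and 4.95 to 5.09, 5.64 and 7.29 FPKM, without overlap. Slc25a46, a member of the outer membrane, was not called (log2 fold change -0.14). The uncoupling proteins Ucp2 and Ucp3 belong to the same carrier family under another symbol. Ucp2, known from immune cells, rose from 101 to 144 FPKM on average (log2 fold change 0.48, limma adjusted p = 0.00963), and Ucp3, known from muscle, fell from 64.2 to 24 (-2.09, limma adjusted p = 0.0199).

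**Figure D2:**
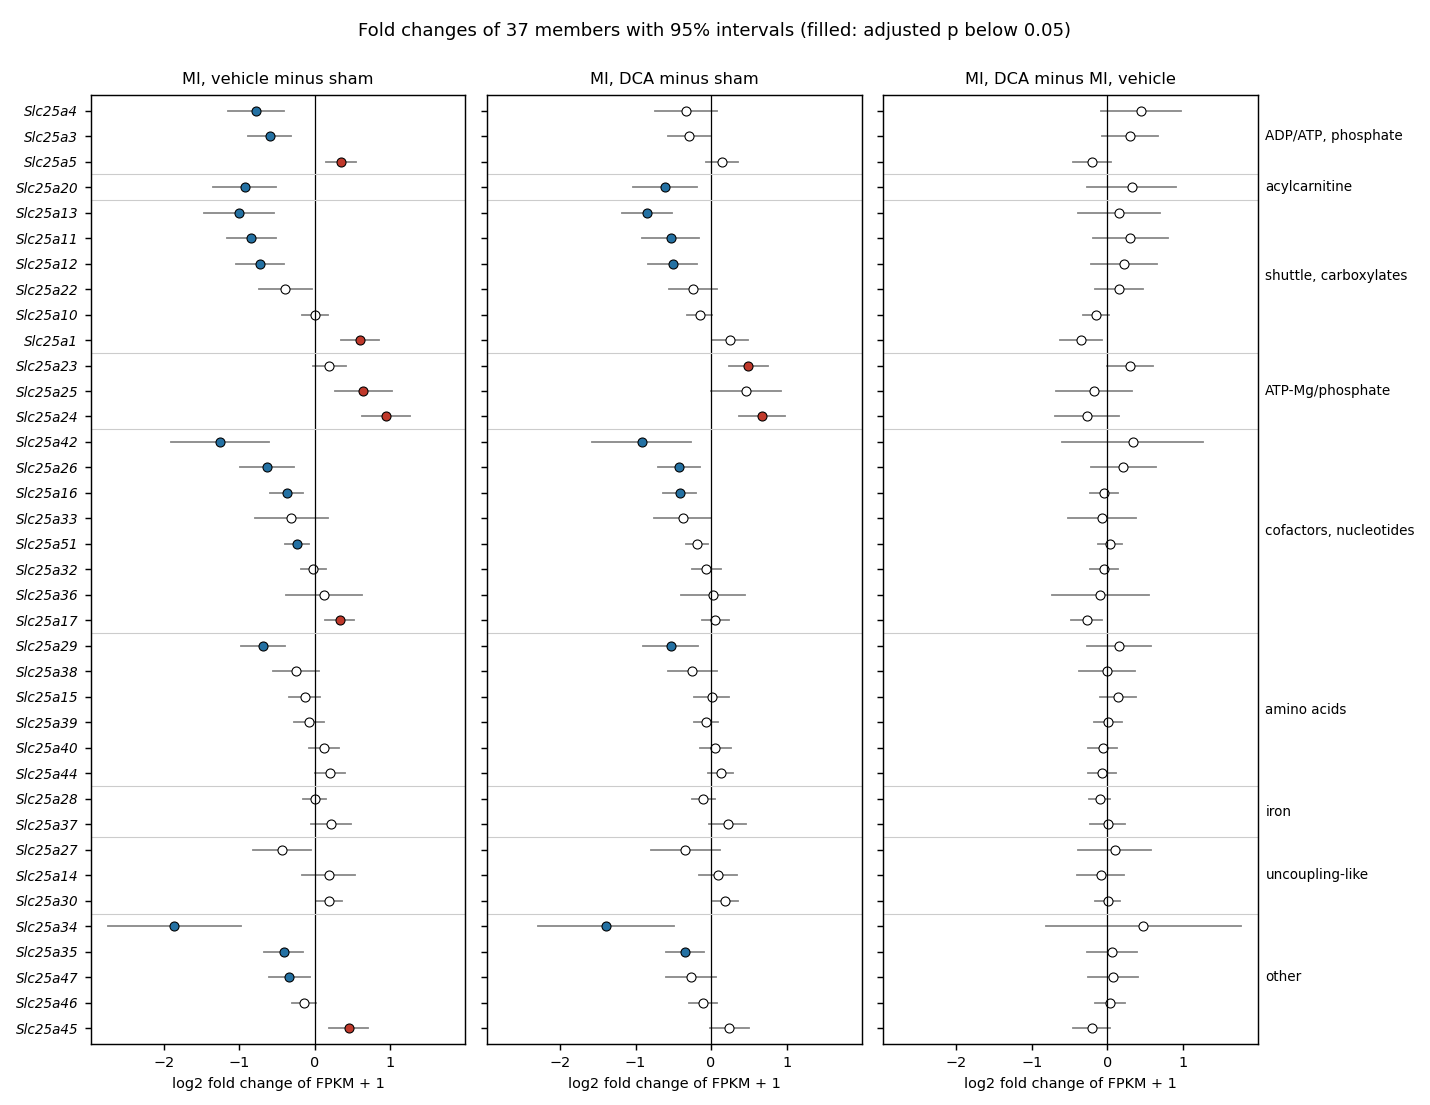
Log2 fold changes of FPKM + 1 with 95% intervals for 37 of the 38 tested members, ordered by role, for MI vehicle against sham, MI DCA against sham and MI DCA against MI vehicle. Filled points passed an adjusted p of 0.05 (red higher, blue lower). Filled points number 20 on the left, 12 in the middle and 0 on the right.

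Genes that work beside the carriers were counted from lists chosen by function, with earlier results of these data known. The shares to set beside these counts are 38.3% called higher and 20.1% called lower among all genes tested. Of 9 genes of ATP synthase and creatine kinase, 8 fell, with a median log2 fold change of -0.63, and of 20 respiratory chain subunits all 20 fell, with a median of -0.64. Among 12 genes of the import path of carriers into the inner membrane, 7 rose and 2 fell, the largest rise being that of Tomm70a, the receptor that binds carrier precursors (0.43, limma adjusted p = 0.0119, or 0.29 and adjusted p = 0.0548 with median-ratio scaling). With median-ratio scaling 2 of the 12 rose and with quantile normalization 4, where 3402 and 3189 of all 11969 genes did. Among 21 other mitochondrial transport genes, 6 rose and 8 fell. Mcub, the dominant-negative subunit of the calcium uniporter, rose by 0.99 on the log2 scale (limma adjusted p = 0.000254), and Mpc2, a subunit of the pyruvate carrier, fell by 0.78 (limma adjusted p = 0.00135). Among 13 regulators of mitochondrial genes, 2 rose and 6 fell. Ppargc1a, the coactivator of mitochondrial gene expression, fell from 22.9 to 9.97 FPKM on average (log2 fold change -1.17, limma adjusted p = 0.000254), while Myc and Pprc1 rose by 1.98 and 1.11 on the log2 scale.

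Markers of cell types moved in the same hearts, where 38.3% of all genes tested were called higher and 20.1% lower in MI_vehicle hearts. Of 12 cardiomyocyte markers, 9 fell, and their summed level was 55821 to 66491 FPKM in sham, 25976 to 56455 in MI_vehicle and 26258 to 60955 in MI_DCA hearts, highest in MI_vehicle replicate 4 and MI_DCA replicate 3 within their groups. All 12 monocyte and macrophage markers rose (summed level 269 to 446 FPKM in sham, 529 to 1236 in MI_vehicle, 323 to 908 in MI_DCA hearts). All 9 measured neutrophil markers rose (52.5 to 127, 178 to 497 and 185 to 329 FPKM). All 10 markers of dividing cells rose (38.9 to 52.3, 62 to 159 and 48.6 to 134 FPKM). Of 12 fibroblast markers, 5 rose and 4 fell (1360 to 1703, 1015 to 1464 and 667 to 1332 FPKM), and of 12 endothelial markers 3 rose and 4 fell (1999 to 3488, 1550 to 2389 and 1809 to 2953 FPKM). Erythroid markers had no call among 5 tested (357 to 2100, 177 to 1380 and 352 to 700 FPKM). Adipocyte markers were near 0, at most 0.64 FPKM in sum. No marker list other than adipocyte markers, with 1 or 2 members, and neutrophil markers in MI_DCA hearts, with 1, had a member at 0 in all hearts of a group. Each sum is weighted to the most abundant genes of its list. Lcn2 gave 282 of the 329 FPKM of the neutrophil sum in MI_DCA replicate 3. Fabp4 gave 2619 of the 3488 FPKM of the endothelial sum in sham_vehicle replicate 3. The part of these cell types in the carrier results was not tested. In bulk tissue, fewer cells of a type and less RNA per cell cannot be told apart.

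To set the carriers beside the muscle cell markers, each level was divided by the summed cardiomyocyte markers of the same heart, as a description without a test. The 12 markers did not move alike, with log2 fold changes from -1.48 to 0.14 in MI_vehicle against sham hearts. The most abundant of them weigh most in the sum. Slc25a4 was 8.53% ± 0.515 (SD, n = 6) of that sum in sham hearts, 8.3% ± 0.736 in MI_vehicle and 8.97% ± 0.346 in MI_DCA hearts. Its ratio thus differed between the groups by less than its FPKM did. Slc25a12 and Slc25a11 had mean ratios in MI_vehicle hearts of 1.0 and 0.931 times the sham mean, and Slc25a3 of 1.11 times. Slc25a34 differed from these, with 0.179% ± 0.0229 in sham, 0.0884% ± 0.0436 in MI_vehicle and 0.0967% ± 0.0433 in MI_DCA hearts, or 0.495 and 0.542 times the sham mean. Slc25a42 and Slc25a13 were at 0.707 and 0.819 times the sham mean in MI_vehicle hearts, and Slc25a20 at 0.871 times. These carriers were picked from those whose FPKM fell. Apart from Slc25a4, Slc25a11, Slc25a13, Slc25a20, Slc25a29, Slc25a34 and Slc25a42, all tested members were at or above the sham mean in MI_vehicle hearts. Slc25a24 stood highest at 3.97 times, Slc25a5 was at 2.26 times, and Slc25a28, whose FPKM was not called, at 1.73 times. The marker sum itself had a median of 57404 FPKM in sham and 33671 in MI_vehicle hearts. A member with unchanged FPKM, as Slc25a28 was, therefore comes out above the sham mean through the divisor alone. Ratios above the sham mean thus do not show that a carrier rose.

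**Figure D3:**
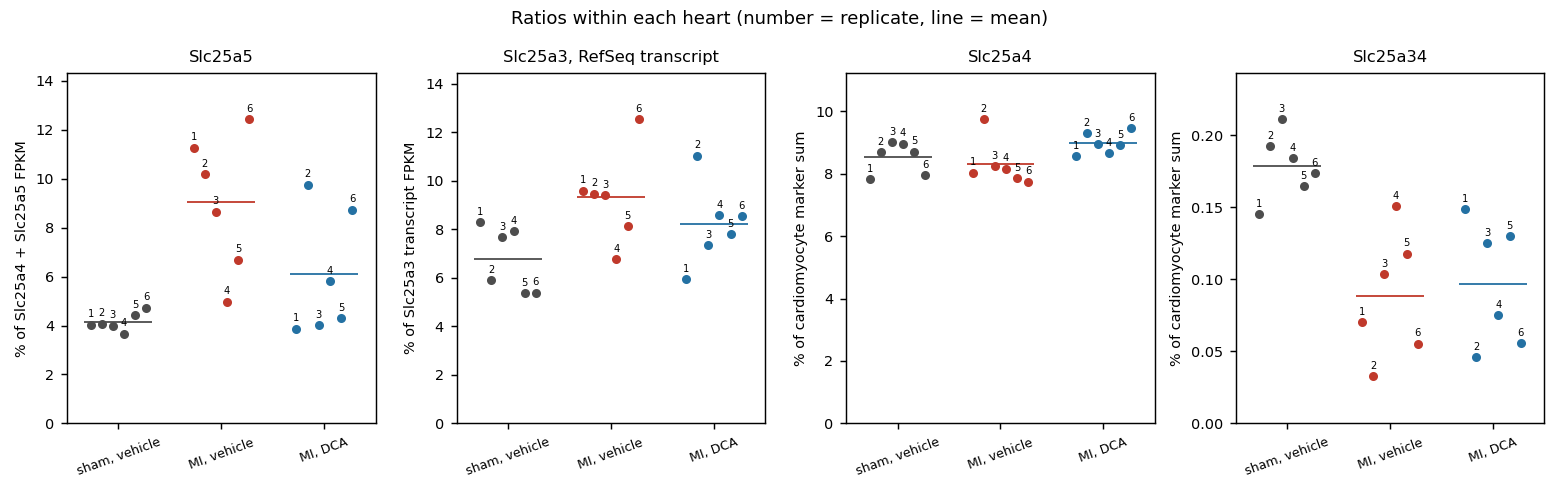
Ratios within each of the 18 hearts, in percent, with the replicate number at each point and a line at the group mean: Slc25a5 in the sum of Slc25a4 and Slc25a5, the curated transcript in all Slc25a3 transcript FPKM, and Slc25a4 and Slc25a34 relative to the summed cardiomyocyte markers. The Slc25a5 share is above the sham range in all 6 MI_vehicle hearts, and Slc25a4 relative to the markers overlaps between all 3 groups.

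The second comparison asked whether infarcted hearts given DCA differed from infarcted hearts given vehicle. No carrier was called, and neither was any of the 12004 genes tested (0.0% in limma, smallest adjusted p among members 0.407). At an unadjusted p under 0.05 there were 2 members lower and 0 higher, where all genes had 9.22% lower and 1.6% higher. No member separated the groups without overlap, as 0.467% of all genes did downward and 0.075% upward. The member median was 0.02 and the median of all genes tested -0.06 on the log2 scale.

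The members with the smallest p in each direction were as follows. Slc25a17 had 13.6, 16.9 and 18.6 FPKM in MI_vehicle and 11.6, 12.9 and 15.4 in MI_DCA hearts, a log2 difference of -0.27 (95% interval -0.48 to -0.07, limma adjusted p = 0.407). Slc25a1, the citrate carrier, had 5.59, 7.62 and 9.06 FPKM in MI_DCA hearts, a log2 difference of -0.35 (-0.63 to -0.07, limma adjusted p = 0.415). The differences of Slc25a10 and Slc25a45 were -0.15 and -0.21. On the other side, Slc25a23 had 32.2, 37.9 and 48.6 FPKM in MI_vehicle and 38.8, 45.3 and 63.4 in MI_DCA hearts, a log2 difference of 0.30 (-0.01 to 0.61, limma adjusted p = 0.461).

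Slc25a4 had 2440, 4358 and 5452 FPKM as lowest, median and highest value in MI_DCA hearts. Its log2 difference from MI_vehicle hearts was 0.45, with a 95% interval from -0.08 to 0.97 (limma adjusted p = 0.497). The DCA hearts thus reached from within the MI_vehicle range to above the highest sham value. Slc25a3 had 849, 1221 and 1439 FPKM in MI_DCA hearts and a difference of 0.30 (-0.07 to 0.67). For Slc25a5 the difference was -0.20 (-0.45 to 0.05), for Slc25a20 0.32 (-0.27 to 0.91), for Slc25a12 0.22 (-0.22 to 0.65) and for Slc25a13 0.15 (-0.39 to 0.70). Slc25a34 had the widest interval, 0.47 (-0.82 to 1.77). Its MI_DCA hearts had 84, 12, 76.1, 33.6, 73 and 17.8 FPKM from replicate 1 to 6, which shows no common level.

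The share of Slc25a5 in the sum of Slc25a4 and Slc25a5 was 6.09% ± 2.57 (SD, n = 6) in MI_DCA hearts, from 3.88% to 9.76%, against 9.04% ± 2.83 in MI_vehicle hearts, and these ranges overlapped. The share of the curated Slc25a3 transcript was 8.21% ± 1.69 in MI_DCA hearts (exact permutation p = 0.316 against MI_vehicle).

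The third comparison set the infarcted hearts given DCA against the sham hearts. It shares the sham hearts with the first comparison, so the values are given side by side and their likeness is not independent. Of the 38 members, 10 fell and 2 rose, where 8.33% of all 11842 genes were called lower and 15.5% higher. The count of falls depended on the setting and on single hearts. It was 3 without the filter on low values, 4 with all libraries in one fit, and 2 to 5 without any 1 of the sham hearts or without MI_DCA replicate 2, 4 or 6. Without MI_DCA replicate 1, 3 or 5 it was 11, 11 and 10. The falls among all genes moved too, from 987 to 321 to 763 without 1 sham heart, to 333 to 389 without MI_DCA replicate 2, 4 or 6, and to 1294 to 1502 without replicate 1, 3 or 5, but were 939 with all libraries in one fit. Slc25a13 and Slc25a16 kept their call without any single heart.

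Slc25a13 had 25.8, 33.7 and 43.5 FPKM in MI_DCA hearts, all below the lowest sham value of 51.2, and a log2 fold change of -0.85 (SE 0.15, limma adjusted p = 0.00778) beside -1.0 in MI_vehicle hearts. Replicates 1, 3 and 5, which lay near sham in Slc25a4, had 42, 43.5 and 40.3 FPKM of it. Slc25a34 also stayed below every sham heart, at 12, 53.3 and 84 FPKM, with a log2 fold change of -1.39 beside -1.86 (limma adjusted p = 0.0335). It was not called in 9 of 12 fits that left out 1 heart, whose adjusted p ranged from 0.016 to 0.0719. Non-overlapping falls made up 2.84% of all genes.

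Slc25a42 fell to 13.1, 30.9 and 47.2 FPKM (-0.92 beside -1.25, limma adjusted p = 0.0453), and Slc25a20 to 48.8, 92.3 and 119.8 (-0.61 beside -0.93, limma adjusted p = 0.0413). For Slc25a29, Slc25a11 and Slc25a12 the log2 fold changes were -0.54, -0.53 and -0.51 beside -0.68, -0.84 and -0.72. Slc25a26, Slc25a16 and Slc25a35 had -0.42, -0.42 and -0.35 beside -0.63, -0.37 and -0.41. With 1 heart left out, the calls of Slc25a11, Slc25a20, Slc25a35 and Slc25a42 were lost in 9 of 12 fits (limma adjusted p up to 0.0959) and those of Slc25a12, Slc25a26 and Slc25a29 in 8 of 12 (up to 0.0839). Slc25a4 and Slc25a3, the most abundant members, were not called here, with -0.34 (95% interval -0.75 to 0.08, limma adjusted p = 0.191) and -0.29 (-0.57 to -0.01, limma adjusted p = 0.105), and neither was Slc25a5, with 0.15. That they passed against sham in MI_vehicle hearts and not in MI_DCA hearts does not show a difference between those groups, which the second comparison tested.

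Both rises were among the ATP-Mg/phosphate carriers, and both separated from sham without overlap, as 6.31% of all genes did. Slc25a24 had 5.48, 7.06 and 11.6 FPKM in MI_DCA hearts and a log2 fold change of 0.67 (SE 0.14, limma adjusted p = 0.0129) beside 0.94 in MI_vehicle hearts. Slc25a23 rose by 0.49 on the log2 scale (SE 0.12, limma adjusted p = 0.0184) beside 0.19. The third, Slc25a25, had 2.01, 3.99 and 6.05 FPKM and 0.46 (limma adjusted p = 0.116) beside 0.64. Replicates 2, 4 and 6 had the highest Slc25a25 values among the DCA hearts, with 6.05, 4.96 and 4.81 FPKM.

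**Figure D4:**
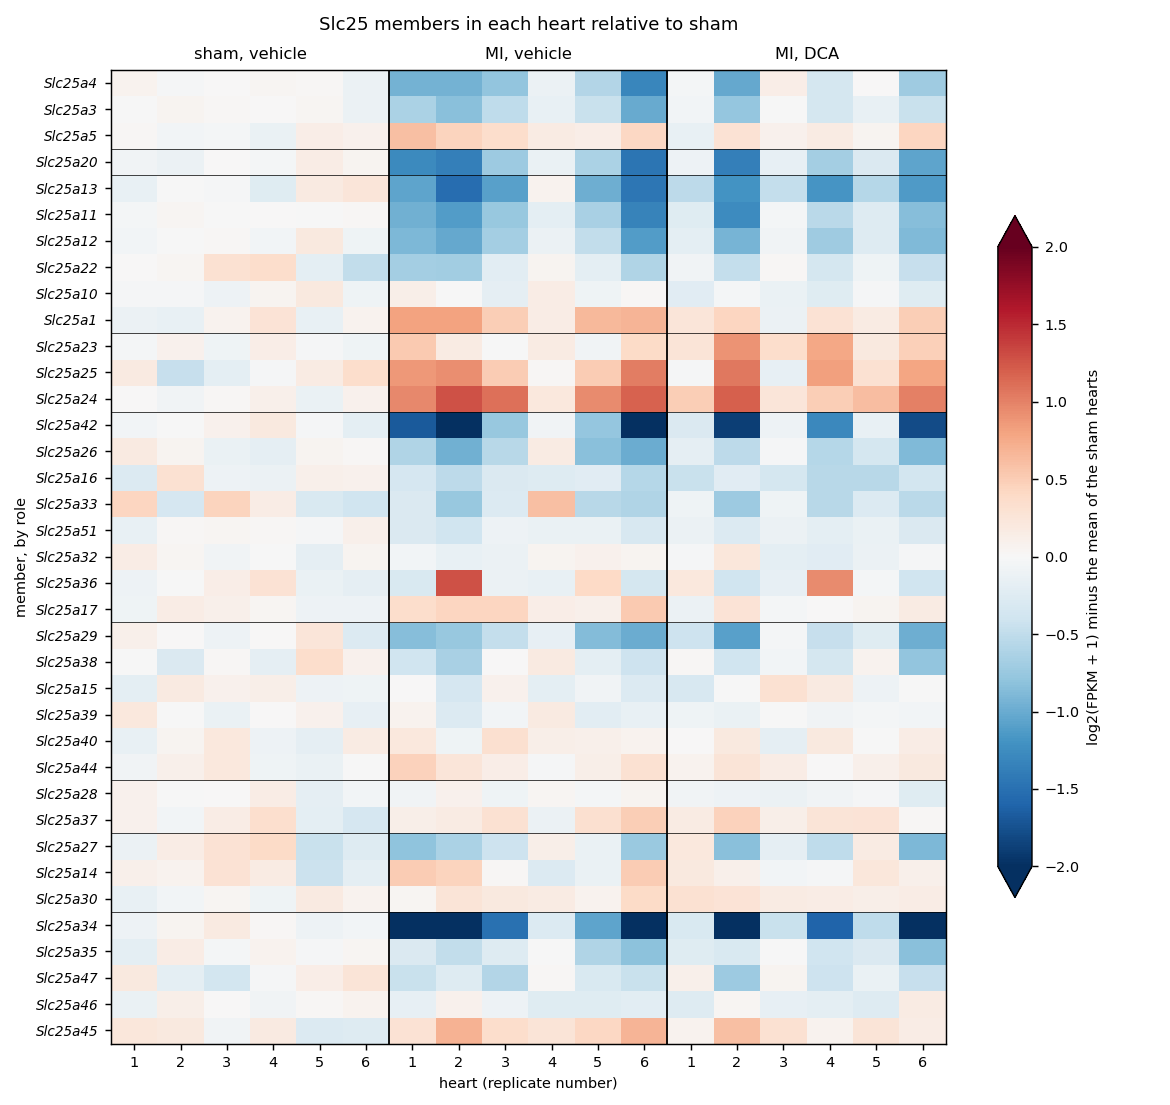
Heatmap of 37 of the 38 tested members (rows, by role) in the 18 hearts (columns), coloured by log2(FPKM + 1) minus the mean of the sham hearts, with the colour scale ending at 2 in both directions. Columns of MI_vehicle replicate 4 and MI_DCA replicates 1, 3 and 5 are mostly pale, like sham, and those of MI_vehicle replicate 6 and MI_DCA replicate 2 are the strongest in their groups for Slc25a4.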

How the data were processed

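RNA was sequenced from 18 heart apex libraries, per the labels' protocols with a transcript capture kit, and reads of 50 bases from 1 end came from a BGISEQ-500 instrument. The authors deposited FPKM per gene and per transcript, and each gene's FPKM equalled the sum of its transcripts within 0.06. RSEM 1.2.12, Bowtie2 2.2.5, the build GRCm38.p6 and DESeq2 1.4.5 are listed without roles, per the submitters' processing notes. No counts were used here, so a count model could not be run and the depth behind the values is unknown.

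From the FPKM, log2(FPKM + 1) was tested with limma 3.58.1 (trend) in R 4.3.3, each comparison on its own 12 libraries, for genes with at least 1 FPKM in 6 or more of them. P-values were adjusted by Benjamini-Hochberg over all genes tested and called under 0.05, and intervals are 95%. The added 1 makes fold changes of low genes smaller than they are. The fit was also run on simulated data in which genes varied independently of one another. Such data lack the spread shared by whole hearts, so they do not give the error rate here. The Slc25a3 transcript share, the Slc25a5 share and the members below the filter had two-sided exact permutation tests over 924 regroupings of the hearts. The smallest p possible is 0.00216. The tests of the Slc25a5 share entered only the adjustment over the 6 ratio comparisons. Groups and replicate numbers follow the sample titles. The labels do not state that libraries of a group came from separate mice, so p-values measure the spread between libraries. No pairing of the libraries by replicate number was seen, and none was used in the main fits.

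Members were taken by symbol alone. That rule, the roles, the partner lists and the marker lists were set with earlier results of these data known. Values were given in full for the 10 called members with the largest rise and fall in each comparison, the 5 most abundant in sham hearts and Slc25a3, Slc25a4, Slc25a5, Slc25a12, Slc25a13 and Slc25a20. Without calls, the 4 members with the smallest p in each direction were named, and of the other lists up to 4 called genes in each direction. Values of 1 member, which is kept in all counts, are not reported here. Alternatives were another pseudocount (0.1), no filter or a filter at 5 FPKM, median-ratio scaling, quantile normalization, all libraries in one fit, robust empirical Bayes, a replicate block and leaving out each library. Sequences are from RefSeq (GRCm38.p6), where 35 of 46 members matched a promoter entry, and from GENCODE M21 transcripts. Figures were drawn with matplotlib 3.10.9, and summaries made with Python 3.11.15, pandas 2.3.3 and scipy 1.17.1.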

Additional observations from a re-analysis of the deposited data

Results flagged for a closer look

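In 6 of 114 groups of 6 hearts (38 members in 3 groups), 1 heart stood far from the rest of its group. That is near the 1 in 20 that chance gives where groups vary independently. Members measured in the same heart can vary together, so that rate was not established here. In MI_vehicle replicate 4, Slc25a13 had 64 FPKM against 20.6 to 30.4 in the other hearts, Slc25a26 had 14.6 against 5.96 to 8.45, and Slc25a33, a pyrimidine nucleotide carrier, had 22.7 against 8.28 to 12. Slc25a36, its close relative, stood high in MI_vehicle replicate 2 with 34.9 FPKM against 10.7 to 18.5, and in MI_DCA replicate 4 with 27.7 against 10.3 to 16.2. Slc25a12 was 111 FPKM in sham_vehicle replicate 5 against 91.4 to 98.6 in the other sham hearts.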

How the results depend on the processing

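In MI_vehicle against sham hearts, 5 to 8 members rose and 13 to 20 fell over all settings. Leaving out 1 library gave 6 to 8 rises and 14 to 19 falls, the highest counts without MI_vehicle replicate 4. Without that heart the calls among all genes also went up, from 4583 higher and 2408 lower to 5157 and 2775. Median-ratio scaling and quantile normalization each gave 5 rises and 20 falls. Across all genes, they moved the median log2 fold change by -0.12 and -0.15 and the calls from 4583 higher and 2408 lower to 3402 and 3416, and to 3189 and 3693. Under them the uncalled Slc25a10, Slc25a36 and Slc25a40 changed sign in at least 1 setting, and Csf1r, Lcn2, Col1a2 and Esam among the markers lost their call in both. In MI_DCA against MI_vehicle hearts, no member was called in any setting run.

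In MI_DCA against sham hearts, the 10 falls became 3 without the filter, 4 with all libraries in one fit, and 2 to 11 with 1 library left out, while the 987 falls among all genes became 793, 939 and 321 to 1502. The 2 rises were 2 to 4 with 1 library left out, the highest without MI_DCA replicate 3, where Slc25a1 and Slc25a25 joined. Without that heart the rises among all genes went from 1830 to 2644. The cause was not tested. All-gene calls moved from 1830 higher and 987 lower to 1353 and 1431 (median-ratio) and 1304 and 1555 (quantile). Slc25a13, Slc25a16, Slc25a23 and Slc25a24 kept their calls in every setting run. No named member that was called reversed.

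The Slc25a5 share differed by -3.76 to -2.27 percentage points between MI_DCA and MI_vehicle hearts with 1 library left out, by 1.2 to 2.37 between MI_DCA and sham hearts, and by 4.20 to 5.69 between MI_vehicle and sham hearts. The curated Slc25a3 transcript's share differed by 1.92 to 3.07, -1.67 to -0.461 and 0.889 to 1.91 in MI_vehicle against sham, MI_DCA against MI_vehicle and MI_DCA against sham hearts.

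Deviations of same-numbered libraries correlated at -0.046 to 0.139, -0.446 to 0.69 and -0.0945 to 0.233 in the 3 comparisons. In each, 1 of 6 numbers, replicate 6, matched best. No pairing by number was thus seen, but the wide spread among infarcted hearts means that this check cannot exclude one. With the replicate block, MI_vehicle against sham hearts gave 6 rises and 17 falls, and MI_DCA against sham hearts 2 rises and 6 falls. The calls among all genes moved as well, from 4583 higher and 2408 lower to 4306 and 2258 in MI_vehicle against sham hearts. In MI_DCA against sham hearts they went from 1830 and 987 to 1124 and 572.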
